A study of Mus musculus with 4 samples.

Results

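Tanycytes are elongated glial cells that line the floor and lower walls of the third ventricle, and the 8 genes described here mark them or the radial glia of the developing brain, whose shape and filament proteins they keep into adult life. The genes are Fabp7, Gpr50, Crym, Rax, Vim, Nes, Lhx2 and Col25a1, chosen by name with earlier results of these arrays known, and they are 8 of the 19938 genes with a probe set of exactly 1 symbol. Each of the 8 had 1 probe set. RNA of the hypothalamus was measured on 4 Affymetrix arrays from males of the CDF1 strain (BALB/c crossed with DBA/2), aged 10 to 11 weeks and killed on day 20 after a subcutaneous injection in the flank. The control array held pooled RNA of 4 mice given a sham injection of 0.2 ml of buffered saline, while tumour-bearing mice received C26 colon adenocarcinoma cells in the same volume. These were 4 mice given 500000 cells (0.5M), 3 mice given 1000000 (1M) and a single mouse given 2000000 (2M), although the title of the last calls it pooled. The labels name no genetic change in these mice, which had free access to food. Each group was 1 array, so the values below are levels and differences between arrays, with no p-value and no replicate error. Where 3 values follow each other they are in the order 0.5M, 1M and 2M, and where there are 4 the control comes first.

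Tanycytes contact the cerebrospinal fluid with their cell bodies and send a long process to the arcuate nucleus, the median eminence or its blood vessels. They carry metabolic signals towards neurons that govern feeding, and they set the local supply of active thyroid hormone through the deiodinase Dio2 and of retinoic acid through retinol uptake and dehydrogenases. Radial glia are the stem cells of the embryonic brain, and adult tanycytes keep some of that capacity. In whole-tissue RNA, fewer cells of a type and less RNA per cell cannot be told apart.

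The 8 genes differed from control by unequal amounts and, at 1M and 2M, in both directions. Fabp7 and Gpr50 were lower in the tumour-bearing arrays, Nes was lower from a low level, Crym was higher on the 2M array alone, and Vim, Rax, Lhx2 and Col25a1 lay within 0.2 log2 of control on every array. A difference of 0.5 log2, or 1.41-fold, is used below as the size that counts. By that size 1 of the 8 genes, Fabp7, was below control at 0.5M, where 0.697% of all 19938 genes were. At 1M there were 3 of 8, Fabp7, Gpr50 and Nes, against 1.59% of genes, and at 2M 2 of 8, Fabp7 and Gpr50, against 1.23%. Above control there were 0 at 0.5M (0.692% of genes), 0 at 1M (3.21%) and 1 at 2M, Crym (1.78%). The genes were chosen with these values known, so nothing is read from the counts. The filter kept genes whose mean level reached the 40th percentile, 6.59 log2, and 6 of the 8 passed it, while Rax and Nes did not. Among the 11963 genes past the filter, 0.293%, 2.14% and 1.25% were at least 0.5 log2 below control and 0.56%, 1.63% and 1.24% above it. Taken over the 8 genes, the median difference was -0.15, -0.04 and -0.11 log2, beside -0.01, 0.07 and 0.03 for all genes. At 0.5M all 8 genes lay below control, by 0.0048 (Vim) to 0.70 log2 (Fabp7), where 51.7% of all genes did, but with array medians subtracted Vim and Rax lay above it there, by 0.02 and 0.01, and Rax also with cyclic loess. Below control were 4 of the 8 at 1M (36% of all genes) and 5 of the 8 at 2M (43.7%). The 3 comparisons share the control array.

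The 2 genes at least 0.5 log2 from control on more than 1 array were Fabp7 and Gpr50, and the windows around their start sites are shown for that reason. They run from 250 bases before to 50 after the start site, from RefSeq on build GRCm38.p6, plus strand, at chr10:57784673-57784972 and chrX:71663417-71663716. Capitals mark matches, on either strand, to 6 short motifs.
Fabp7: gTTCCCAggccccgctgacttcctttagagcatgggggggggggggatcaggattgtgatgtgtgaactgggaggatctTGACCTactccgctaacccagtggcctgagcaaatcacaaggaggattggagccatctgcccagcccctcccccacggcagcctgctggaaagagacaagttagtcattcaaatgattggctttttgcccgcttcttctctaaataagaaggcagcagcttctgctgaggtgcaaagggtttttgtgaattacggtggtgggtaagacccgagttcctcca
Gpr50: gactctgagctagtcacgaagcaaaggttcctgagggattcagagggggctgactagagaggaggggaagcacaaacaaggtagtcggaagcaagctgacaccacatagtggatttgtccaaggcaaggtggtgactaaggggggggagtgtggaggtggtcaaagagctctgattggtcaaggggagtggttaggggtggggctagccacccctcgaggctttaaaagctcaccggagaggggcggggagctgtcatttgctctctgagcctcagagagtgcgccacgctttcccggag
The motifs were the core of RBPJ, the nuclear effector of Notch (TGGGAA), a SOX core (ACAATG), a LIM homeodomain core (TAATTA), the half-site of nuclear receptors (AGGTCA), a glucocorticoid receptor element (ACANNNTGT) and the TATA box (TATAAA). The Fabp7 window held 1 RBPJ core and 1 nuclear receptor half-site, both on the minus strand and not overlapping, which begin at -249 and -171 from the start site. Of the 32851 windows of the same length in the table, 25.6% held the RBPJ core and 16.3% the half-site. The Gpr50 window held 0 matches to the 6 motifs, so it has no capitals. In the other windows of the genes described here, that of Vim held a TATA box (13.6% of all windows) and both windows of Lhx2 held an RBPJ core, while those of Nes and Col25a1 held 0 matches. The SOX core, the LIM homeodomain core and the glucocorticoid receptor element stood in 12.6%, 5.29% and 6.85% of all windows. A match is a run of letters and does not show a binding site.

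Fabp7 encodes the brain fatty acid-binding protein, which carries long polyunsaturated fatty acids in radial glia, tanycytes, astrocytes and oligodendrocyte precursors. Its level (probe set 10363224) was 12.30 log2 in the control array, 11.60 at 0.5M, 11.58 at 1M and 10.52 at 2M. The control was highest, the 0.5M and 1M arrays lay 0.015 log2 apart, and the single animal of 2M was lowest. The differences from control were -0.70, -0.72 and -1.78 log2, so the 3 tumour-bearing arrays stood at 61.5%, 60.8% and 29.1% of the control level. Fabp7 had the lowest difference of all 11963 genes at 2M, the fifth lowest (rank 5) at 0.5M and rank 55 at 1M. The mean over the 3 arrays was -1.07 ± 0.62 log2 (SD over the 3 tumour-bearing arrays, which holds no error of the control array), a 2.09-fold difference. Without the 2M array the mean was -0.71. The 2M array was also 1.08 log2 below the 0.5M array and 1.06 below the 1M array, ranks 4 and 2 from the lowest. These comparisons leave out the control but rest on the same single 2M array, so they are not separate support. A difference of at least 0.5 log2 downwards was found for 0.259% of genes between 2M and 0.5M and for 0.527% between 2M and 1M. Over the 4 arrays Fabp7 spanned 1.78 log2, where the median gene spanned 0.22 and 0.0418% of genes spanned as much.

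**Figure D1:**
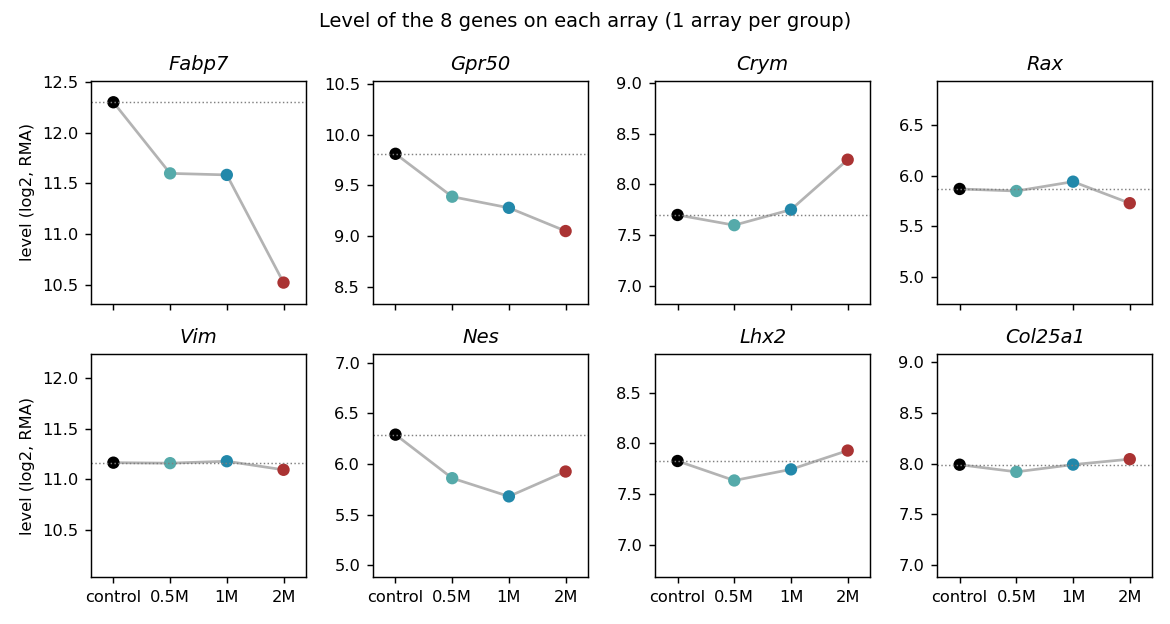
Level of each of the 8 genes on the 4 arrays, in log2 units after RMA, with 1 point per array, every panel spanning the same height in log2 units and a dotted line at the control level. Fabp7 is lowest at 2M (10.52 against 12.30 in control), Gpr50 lies below control on all 3 tumour-bearing arrays, Crym is highest at 2M, and Vim stays between 11.10 and 11.18.

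Other carriers of the fatty acid-binding family did not show the same size of difference. Fabp5, the epidermal form, also made by glia, stood at 8.86, 8.86, 8.47 and 8.22 log2. It was level with control at 0.5M and lower on the other arrays, by 0.39 and 0.64 log2. Its second probe set gave differences of -0.05, -0.46 and -0.57. Fabp3, the heart form, found in neurons, differed by 0.05, -0.09 and -0.14 log2. The cellular retinoic acid-binding gene Crabp2 was -0.26 ± 0.12 log2 from control, and Pmp2, the peripheral myelin form, below the filter, was at -0.48, 0.03 and -0.44. Rbp2, the intestinal retinol-binding form, also below the filter, was higher, at 0.40, 0.30 and 0.52 log2. Of the 12 measured family members other than Fabp7, 4 passed the filter and 2 (Fabp5 and Rbp2) reached 0.5 log2 on some array, as did 7.15% of all 19938 genes. The mean differences had a median of 0.14 log2, beside 0.03 for all genes.

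The genes whose differences lay nearest to those of Fabp7, by Euclidean distance over the 3 differences from control, were Ugt8a, Scarna13, Snora16a, Pllp and Opalin. The nearest, Ugt8a, which makes the galactolipids of myelin, was -0.69, -0.50 and -1.27 log2 from control, at a distance of 0.55. Pllp, a myelin proteolipid, was at -0.41, -0.20 and -1.26, and Opalin, an oligodendrocyte membrane protein, at -0.38, 0.02 and -1.72. Their distances from Fabp7 were 0.79 and 0.80. Scarna13 and Snora16a are small RNA genes, at -0.27, -0.87 and -1.36 and at -0.36, -1.06 and -1.30. Neighbours were sought only among genes past the filter. No other such gene came within 0.3 log2 of Fabp7, while 54 came that near to Gpr50 and 59 to Crym. Fabp7 had the lowest 2M difference of all these genes, so few could lie near it, and the counts add no separate result. Because Ugt8a, Pllp and Opalin are genes of myelin, the oligodendrocyte list is given beside Fabp7. The 5 were picked by these same differences, and the share of myelin genes among all genes was not counted. All 10 measured markers of 11 passed the filter, and their mean level was 9.85, 9.78, 10.03 and 9.73 log2. The list median difference was -0.09, 0.12 and -0.19 log2. Mag was at -0.28, 0.08 and -0.54, Cnp at -0.17, -0.02 and -0.43 and Olig1 at -0.09, -0.02 and -0.35. Cspg4, a gene of their precursors, was at 0.16, 0.39 and 0.24 and Mobp at 0.26, 0.47 and 0.53. The part of oligodendrocytes in the Fabp7 difference was not tested.

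Gpr50 encodes an orphan receptor related to the melatonin receptors, though it does not bind melatonin, and it is a tanycyte gene of the adult mouse hypothalamus known to vary with feeding state. Its level (probe set 10600024) was 9.81 log2 in control, 9.39 at 0.5M, 9.28 at 1M and 9.05 at 2M. The arrays followed the number of injected cells, with the control highest, and the steps between neighbouring tumour-bearing arrays were 0.11 and 0.23 log2 in size. The number of mice per tumour-bearing array (4, 3 and 1) fell along the same order, so cell number and pool size cannot be told apart. From control the differences were -0.42, -0.53 and -0.76 log2, that is 74.6%, 69.1% and 58.9% of the control level. The first of these lay just short of 0.5 log2 and the second just past it. Gpr50 held ranks 89, 199 and 25 from the lowest of 11963 genes, and its mean difference was -0.57 ± 0.17 log2. Its 0.76 log2 span over the arrays was reached by 1.07% of genes.

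The melatonin receptors themselves were below the filter. Mtnr1a, the receptor of the pars tuberalis and suprachiasmatic nucleus, differed by 0.03, -0.04 and -0.11 log2. Mtnr1b differed by 0.04, 0.10 and 0.48. The genes nearest to Gpr50 were Mob3b, Hsd17b7, Rbm17, Emp2 and Rgs6, at distances of 0.08 to 0.15 log2. Hsd17b7, an enzyme of cholesterol synthesis, was at -0.51, -0.51 and -0.77 log2, and Emp2, an epithelial membrane protein, at -0.41, -0.51 and -0.90.

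**Figure D2:**
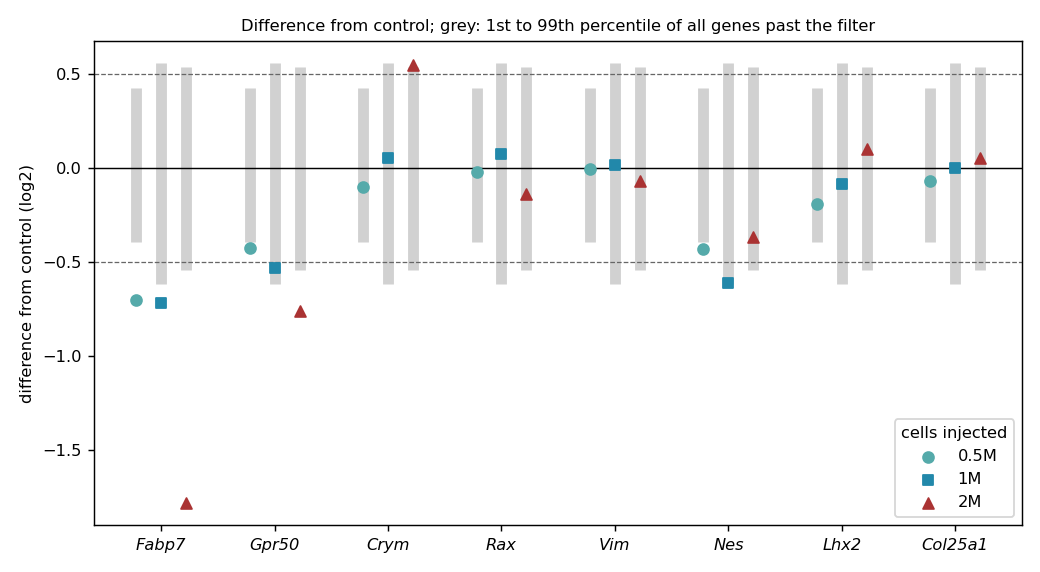
Difference of each gene from the control array in log2 units at 0.5M (circles), 1M (squares) and 2M (triangles), with dashed lines at 0.5 log2 either way and grey bars from the 1st to the 99th percentile of all 11963 genes past the filter in the same comparison. Fabp7 lies below the grey bar on all 3 arrays, Gpr50 at 0.5M and 2M and Nes at 0.5M, Crym lies just above it at 2M, and the lowest point of the plot is Fabp7 at 2M, -1.78. Nes and Rax are under the filter and so are not among the genes of the grey bars. Over all 19938 genes the 1st percentile was -0.45 at 0.5M and -0.57 at 1M, where Nes lay at -0.43 and -0.61.

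Crym encodes mu-crystallin, which binds thyroid hormone in the cytosol and marks tanycytes and some neurons. Its level (probe set 10567546) was 7.70 log2 in control, 7.60 at 0.5M, 7.75 at 1M and 8.24 at 2M. Only the 2M array stood apart, and the others spanned 0.15 log2. The differences from control were -0.10, 0.05 and 0.55 log2, the last 146% of control and rank 113 from the highest. Against the 0.5M array the 2M array was 0.65 log2 higher, a 1.57-fold difference at rank 6 from the highest, where 0.217% of genes were at least 0.5 log2 higher. Against 1M it was 0.49 log2 higher, just short of that size, which 0.518% of genes reached, at rank 65. Fabp7 and Crym thus lay at opposite ends of the differences between the single animal of 2M and the 0.5M pool. The genes nearest to Crym were Shisal2a, Prdm8, CK137956, Ifitm1 and Vgll3, at distances of 0.10 to 0.17 log2, all with 2M differences of 0.40 to 0.50.

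**Figure D3:**
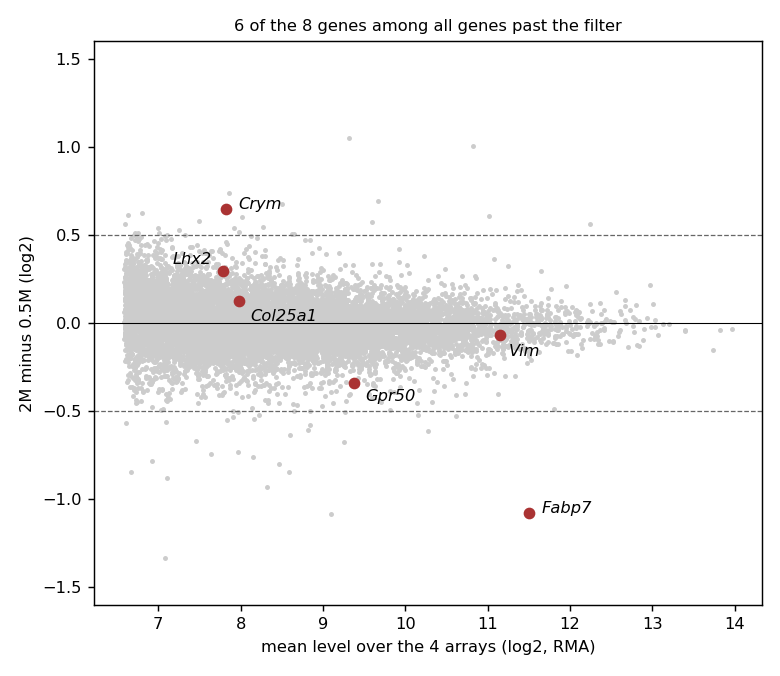
Difference between the 2M and the 0.5M array (log2) against the mean level over the 4 arrays (log2) for the genes past the filter (grey) and the 6 of the 8 genes among them (red), with dashed lines at 0.5 log2 either way. Fabp7 lies at -1.08 and Crym at 0.65, and 1 gene lies outside the plotted range of 1.6 log2 either way.

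Nes encodes nestin, an intermediate filament of neural stem cells, tanycytes and growing vessels. Its level (probe set 10493114) was 6.29 log2 in control, 5.86 at 0.5M, 5.68 at 1M and 5.93 at 2M. The control was highest and the order did not follow the cell number, since 1M was lowest. The differences were -0.43, -0.61 and -0.36 log2 (mean -0.47 ± 0.13), at levels under the filter in all 4 arrays. Over all 19938 genes with no filter, 0.697%, 1.59% and 1.23% were at least 0.5 log2 below control.

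Vim encodes vimentin, the intermediate filament of tanycytes, of radial glia and also of vessel walls and meninges. It stood at 11.17, 11.16, 11.18 and 11.10 log2 (probe set 10469322). It was the steadiest of the 8 genes, with a span of 0.08 log2, and 92.2% of genes spanned at least as much. Among 11 other intermediate filament genes, Gfap, the astrocyte filament, differed by -0.09, 0.25 and -0.03 log2. The neurofilament gene Nefm was at -0.41, -0.29 and -0.54 and Nefh at 0.04, 0.43 and 0.22. These 11 had a median mean difference of 0.04 log2, and 10 stayed within 0.5 log2 of control on all arrays.

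Vessel and meningeal markers, whose cells also hold nestin or vimentin, are given beside these filament genes. Of 15 measured endothelial and mural markers 14 passed the filter, and their mean level was 8.19 log2 in control and 8.16, 8.14 and 8.15 on the other arrays. Cldn5, a tight junction gene, was -0.17 ± 0.05 log2 from control, Pecam1 0.21 ± 0.07, and Acta2, the smooth muscle actin and the 1 marker of this list past 0.5 log2, was at -0.32, -0.78 and -0.47. The 11 meningeal fibroblast markers, a list added after the values were seen, had mean levels of 8.31, 8.11, 7.98 and 8.11 log2 and a median difference of -0.20, -0.30 and -0.13. At 1M, 3 of them were at least 0.5 log2 lower, Ogn at -0.98, Slc6a13 at -0.59 and Dcn at -0.50, where 1.59% of all genes and 2.14% of those past the filter were. Lum, below the filter, was at -0.24, -0.50 and -0.86. Their part in the Nes difference was not tested.

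The 2 transcription factors of the set lay near control. Rax, the homeobox gene that tanycytes need to form and to keep their identity, stood at 5.87, 5.85, 5.94 and 5.73 log2 (probe set 10459471). Its differences were -0.02, 0.07 and -0.14 log2 from a level under the filter. With cyclic loess the 0.5M and 1M differences were 0.004 and -0.05 and with array medians subtracted 0.01 and 0.05, so its direction on those arrays is not settled. Lhx2, a LIM homeobox gene of tanycytes and their precursors, stood at 7.83, 7.63, 7.74 and 7.93 log2 (probe set 10471833). It was lower than control at 0.5M and 1M, by 0.19 and 0.08, and 0.10 higher at 2M. Of 10 measured relatives, 0 reached 0.5 log2 on any array, and their median differences were 0.08, 0.21 and 0.20 log2, with Lhx6, a gene of inhibitory neurons, at 0.30, 0.34 and 0.44.

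Col25a1, a transmembrane collagen made by neurons and tanycytes, stood at 7.99, 7.92, 7.99 and 8.04 log2 (probe set 10496036). The arrays spanned 0.13 log2, and 81% of genes spanned at least as much. Its relatives Col13a1, Col17a1 and Col23a1 had mean differences of 0.27, 0.19 and -0.02 log2.

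Further tanycyte genes were listed by their known roles, but with earlier results of these arrays known, so the list is not a blind comparison. Of 24 listed, 22 were measured and 20 passed the filter, and 20 lay within 0.5 log2 of control on all 3 arrays. Beside the 7.15% of all genes that reached 0.5 log2 on some array, these were 2 of 22, Ppp1r1b and Adm, and 4 of the 8 described above. Their median difference was -0.01, 0.04 and -0.04 log2. Dio2, which converts thyroxine to its active form in tanycytes and astrocytes, stood at 7.25, 7.69, 7.64 and 7.49 log2. It was higher than control on all 3 arrays, by 0.44, 0.40 and 0.24 log2, while Fabp7 and Gpr50 were lower. Igfbp5, a binding protein of insulin-like growth factors, was -0.31 ± 0.08 log2 from control, Six3, a forebrain homeobox gene, 0.25 ± 0.17, and Adm, the adrenomedullin gene, below the filter, 0.37 ± 0.13.

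Ppp1r1b, the phosphatase inhibitor DARPP-32, had the highest single difference of that list, 0.87 log2 at 0.5M, with 0.25 at 1M and 0.34 at 2M. It is also abundant in striatal projection neurons, for which a list was added after the values were seen. All 9 measured of 11 markers passed the filter, and their mean level was 9.06 log2 in control, 9.37 at 0.5M, 9.10 at 1M and 9.15 at 2M. Pde10a, a striatal phosphodiesterase, was at 0.84, 0.26 and 0.17 log2, Rgs9 at 0.48, 0.19 and 0.21 and Drd1 at 0.43, 0.05 and 0.07. Other markers had another order, Gpr6 at 0.28, 0.16 and 0.51 and Tac1 at 0.08, -0.40 and -0.21. The list median was 0.21, 0.05 and 0.07 log2. Of the 9, 2 reached 0.5 log2 on some array, beside 7.15% of all genes. The part of striatal tissue in the Ppp1r1b value was not tested.

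**Figure D4:**
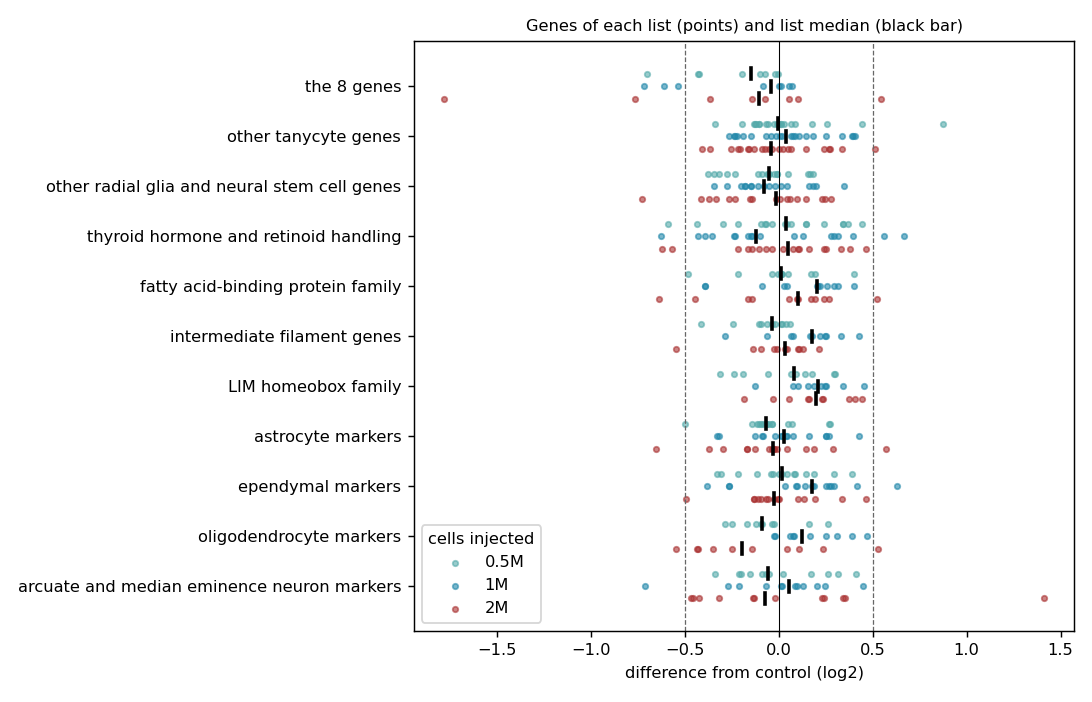
Differences from control in log2 units for the genes of 11 lists (points) at 0.5M, 1M and 2M, with a black bar at each list's median and dashed lines at 0.5 log2 either way. The points of the 8 genes spread from -1.78 (Fabp7, 2M) to 0.55 (Crym, 2M), and the median of the other tanycyte genes stays between -0.04 and 0.04.

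Radial glia and neural stem cell genes other than the 8 had median differences of -0.05, -0.08 and -0.01 log2, with 17 of 18 measured, 16 past the filter and 16 within 0.5 log2 of control on all arrays. The exception was Ptn, the growth factor pleiotrophin, at 9.46, 9.18, 9.11 and 8.73 log2. Its differences of -0.28, -0.34 and -0.73 had the same order of arrays as those of Gpr50. Sox2, the stem cell factor also kept by tanycytes and astrocytes, was -0.23, -0.27 and -0.23 log2 from control. Hopx was -0.30 ± 0.13 and Tnc, the matrix protein tenascin-C, -0.28 ± 0.07. Pax6, a transcription factor of radial glia, had the highest mean difference of the list, 0.19 ± 0.18, with -0.01, 0.35 and 0.25 on the 3 arrays. Slc1a3, the glutamate transporter of radial glia and astrocytes, lay at -0.05, 0.01 and 0.05.

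Genes of thyroid hormone and retinoid handling, both functions of tanycytes, differed in either direction. Of 20 listed, 18 were measured, 17 passed the filter and 4 reached 0.5 log2 on some array, beside 7.15% of all genes and 5.32% of those past the filter. The thyroid hormone-responsive genes Hr and Klf9 were 0.49 ± 0.16 and 0.42 ± 0.12 log2 above control. Stra6, the receptor that takes up retinol, was at -0.59, -0.36 and -0.57 log2 and Aldh1a2, a dehydrogenase that makes retinoic acid and is abundant in meninges, at -0.43, -0.63 and -0.62. The list median was 0.04, -0.12 and 0.05 log2. Meningeal markers were lower on the same arrays, as given above, and their part in the Aldh1a2 and Stra6 values was not tested.

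Neighbouring cells of the ventricle wall gave no common shift. For comparison, 7.15% of all genes and 5.32% of those past the filter reached 0.5 log2 on some array. The median difference of all genes was -0.01, 0.07 and 0.03 log2. The 16 astrocyte markers, all past the filter, had mean levels of 10.52, 10.48, 10.56 and 10.48 log2 and median differences of -0.07, 0.03 and -0.03, with 14 within 0.5 log2 on all arrays. The others were Aqp4, the water channel of astrocyte endfeet and ependyma, at -0.50, -0.33 and -0.65, and Agt, angiotensinogen, at 0.27, 0.27 and 0.57. The 15 ependymal markers, 8 of them past the filter, had median differences of 0.02, 0.18 and -0.02 log2. The 1 marker past 0.5 log2 was Dynlrb2, a dynein light chain gene of cilia below the filter, which was higher at 0.39, 0.63 and 0.46. Ccdc153 was also higher on all 3 arrays, at 0.29, 0.42 and 0.33, while Tm4sf1 was lower, at -0.33, -0.38 and -0.49. Foxj1, the master gene of motile cilia, was at -0.12, 0.09 and 0.14. Choroid plexus markers, of which 5 of 11 passed the filter, had medians of 0.02, 0.15 and -0.02, with Ttr, the plexus's transthyretin, at 0.15, -0.15 and -0.03. The 2 plexus markers past 0.5 log2 were the potassium channel gene Kcnj13, at -0.37, -0.60 and 0.06, and the water channel gene Aqp1, below the filter, at -0.01, 0.53 and 0.46.

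Markers of neurons of the arcuate nucleus and median eminence, where tanycytes end, are also given. Of 14 markers 12 were measured, since Agrp and Prlr had no probe set of exactly 1 symbol. Of these 10 passed the filter, Npy, Pomc, Sst, Gal and Th among them, with median differences of -0.06, 0.05 and -0.07 log2. Passing the filter does not by itself check the tissue label. Npy, the feeding peptide, was the gene of that list furthest from control at 2M, at 0.41, 0.20 and 1.41 log2. The pituitary hormone genes Gh and Prl stood far above control on the 0.5M array. Gh, the growth hormone gene, stood at 6.13, 10.80, 6.91 and 6.85 log2, and Prl, the prolactin gene, below the filter, at 3.95, 7.80, 4.50 and 4.51. At 1M and 2M they were above control too, Gh by 0.78 and 0.72 log2 and Prl by 0.55 and 0.56. Of 11 measured pituitary and pars tuberalis markers, 6 reached 0.5 log2 in either direction on some array, beside 7.15% of all genes. On the 0.5M array only 2, Gh and Prl, were that far above control (0.692% of all genes), and 0 were that far below. Timeless was at 0.27, 0.54 and 0.46 log2 and Lhb at 0.34, 0.38 and 0.33. Lower were Chrna6, at -0.09, -0.76 and -0.29, and Pomc, at -0.20, -0.21 and -0.46. Cga, the pituitary glycoprotein hormone subunit found in the pars tuberalis beside the median eminence, was at -0.05, -0.01 and -0.50. On that 0.5M array Fabp7 and Gpr50 differed from control by -0.70 and -0.42 log2, and without it their means were -1.25 and -0.65. The part of the dissection border in these differences was not tested. Arrays correlated with each other at 0.984 to 0.994 over all probe sets, and the array medians ranged from 6.72 to 6.77 log2.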

How the data were processed

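Total RNA of the hypothalamus was amplified and hybridized by the authors, per the labels' protocols, with RNA pooled in equal amounts within a group except for the single animal of 2M. The deposited table holds log2 expression values of 35556 probe sets on 4 arrays, which the submitters' processing notes credit to RMA. That method corrects for background, gives all arrays 1 distribution of intensities and combines probes into a probe set, so a change common to all transcripts is removed. Software and version: not given in the sources used here. Of the probe sets, 21789 carried 1 gene symbol in the platform annotation, 1621 several and 12146 were unnamed here. The probe set of highest mean stood for a gene.

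Differences of log2 values between arrays were computed with pandas 2.3.3 in Python 3.11.15. No significance test was run, since each group was 1 array and the genes were chosen with their values known. The genes and lists were chosen with earlier results of these data known, and 2 lists were added after the values were seen. The rule for named genes took the 8 genes, defining markers of the lists, in each list up to 5 genes furthest from control on average, and the 5 genes nearest to Fabp7, to Gpr50 and to Crym. Alternatives were averaged probe sets, cyclic loess (limma 3.58.1, R 4.3.3), array medians subtracted, other filters, a size of 1 log2 and leaving out each tumour-bearing array. The computation of differences was tested on simulated data with known differences. The number of arrays limits the precision. Sequences came from RefSeq, for 6 of the 8 genes.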

Additional observations from a re-analysis of the deposited data

How the results depend on the processing

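With a size of 1 log2 in place of 0.5, the number of the 8 genes below control was 0 at 0.5M, 0 at 1M and 1 (Fabp7) at 2M. With averaged probe sets, cyclic loess or array medians subtracted these counts were 1, 3 and 2, as in the main setting. The mean difference of Fabp7 ranged from -1.25 (without the 0.5M array) to -0.71 (without the 2M array). The median of the 8 genes ranged from -0.09 (without the 2M array) to -0.03 (without the 0.5M array), and was -0.08 with cyclic loess. Genes at least 0.5 log2 below control numbered 35, 256 and 149 at 0.5M, 1M and 2M. With no filter they numbered 139, 318 and 245, and with a 60th percentile filter 18, 191 and 98. Genes at least 0.5 log2 above control numbered 67, 195 and 148 at 0.5M, 1M and 2M. Against these stood 138, 640 and 354 with no filter and 29, 85 and 68 with the 60th percentile filter. The share of genes at least 0.5 log2 below control moved with the filter too. With no filter it rose from 0.293% to 0.697% at 0.5M. It fell from 2.14% to 1.59% at 1M and from 1.25% to 1.23% at 2M, and the cause was not tested. No paired analysis was possible because each group has 1 array. The low signal of Rax and Nes limits what their values can show, and without replicate arrays none of the differences can be set against the spread between animals.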
